A study of Rattus norvegicus with 24 samples.

Results

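Expression of glycolysis enzymes was examined in rat skin explants, with Gapdh, a gene in common use as a qRT-PCR reference, among them. A rule naming 12 genes (Gapdh, Gapd, Hk1, Hk2, Gpi, Pfkl, Aldoa, Tpi1, Pgk1, Eno1, Pkm2 and Ldha) was applied to the gene names of a custom two-color array. It found 5 genes (Hk1, Hk2, Pfkl, Gapdh and Pgk1), each with 1 probe and 1 spot, among 8453 probes for 7244 genes by name. The other 7 names were not analysed here. The samples came from a skin explant assay, a culture model of the graft versus host reaction, in which 1 explant per rat was exposed to alloreactive lymphocytes and another to control lymphocytes. All explants were paw skin of male BN rats aged 15 weeks. The allogeneic explants were cultured for 3 days together with PVG lymphocytes, which had first been exposed to irradiated BN splenocytes in a mixed lymphocyte reaction (MLR) of 7 days. For the syngeneic explants, the lymphocytes came from BN rats and a parallel syngeneic MLR of the same length. The RNA of both explants of each of 12 rats was compared on 2 arrays with the dyes exchanged, giving 24 arrays on 3 slides. The assay lacks the circulation and the immune system of a living host, and lymphocytes that remain on or inside the skin add their RNA to the sample.

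Glycolysis splits glucose into pyruvate in the cytosol and yields ATP and NADH. The hexokinases (Hk1, Hk2) phosphorylate glucose on entry, phosphofructokinase (Pfkl is its liver form) makes the committed step, glyceraldehyde-3-phosphate dehydrogenase (Gapdh) oxidizes the triose and produces NADH, and phosphoglycerate kinase (Pgk1) makes ATP in the step after Gapdh. Skin depends on glycolysis to a large extent, and activated lymphocytes raise it, so that the level of these transcripts can reflect both the tissue and the cells added to it.

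The Gapdh signal of each array rested on the hybridization of a single oligonucleotide. Its sequence is shown because the measured difference of the reference gene depends on it alone. It is written 5′ to 3′, and the capitals mark the 19 codons of its only reading frame without a stop codon.
Gapdh probe: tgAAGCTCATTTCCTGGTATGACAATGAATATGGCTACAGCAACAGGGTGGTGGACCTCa

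The file headers place this probe of 60 bases on chromosome 4 of the rn3 build, from 161527376 to 161527545. This span is 110 bases longer than the probe. The array annotation lists 4 RefSeq transcripts for it, Gapdh and further entries predicted as similar to Gapdh, so that transcripts of near-identical loci could not be told apart from Gapdh. The Hk2 probe was placed on chromosome 4 from 117170351 to 117170410, the Pfkl probe on chromosome 20 from 11032376 to 11032435, and the Pgk1 probe on chromosome X from 94413547 to 94413601. No position was listed for the Hk1 probe. Exons or UTRs were not assigned, since no annotation of this build was used here. The GC content of the 5 probes was between 43.3% and 55.0%, with a median of 45.0% over all probes on the array. No probe of the 5 shared a run of more than 13 bases with any other probe.

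All 5 genes were measured well above background in both channels on 24 of 24 arrays, and no spot was saturated or marked as an outlier. The spots of Pgk1, Gapdh and Hk1 were at percentiles 99.7, 99.6 and 95 of spot brightness over all probes, and those of Pfkl and Hk2 at percentiles 78.9 and 69.8. Spot brightness is a property of the probe and was not used to compare transcript levels between genes. At the upper end of the intensity range, few other spots inform the loess curve that removes the dye bias.

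A pair of samples stood apart from the rest. The log2 ratios of rat 8 correlated with those of the other rats at 0.0998 to 0.241 across genes, compared to 0.285 to 0.823 among the others. The array of rat 10 with the allogeneic sample in Cy5 had a median spot intensity of 6668 in Cy3 and 25642 in Cy5, while the other arrays had medians of 135 to 216 and 269 to 415. After turning to the same direction, both arrays of rat 10 correlated at 0.133. Each result is therefore also given without rat 8 and this bright array where that changes it.

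Hk1 and Pgk1 were expressed at higher levels in the allogeneic than in the syngeneic explants, by 1.13-fold and 1.20-fold. Gapdh was 1.11-fold higher on average but did not pass the threshold over 12 rats, and Hk2 and Pfkl had mean differences close to 0. These directions follow the dye labels. By the same labels, markers of T cells and macrophages were lower in the allogeneic explants, opposite to the direction in which the study describes immune genes. If the labels were exchanged on all 24 arrays, each sign given here would turn, while sizes and p-values would stay. This was not tested. With limma, 2 of the 5 genes had an adjusted p under 0.05, both higher, and over all genes 16.3% were called, 8.67% as higher and 7.59% as lower. At the level of probes 17.3% were called. Without rat 8 and the bright array, 4 of the 5 genes were called, all higher, among 25.6% of all genes. With log ratios centred on the median in place of loess, none of the 5 genes was called by limma (1 had an unadjusted p under 0.05), and the Gapdh difference was -0.033. In bulk explants, a lower number of cells of one type and less RNA per cell cannot be told apart.

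**Figure D1:**
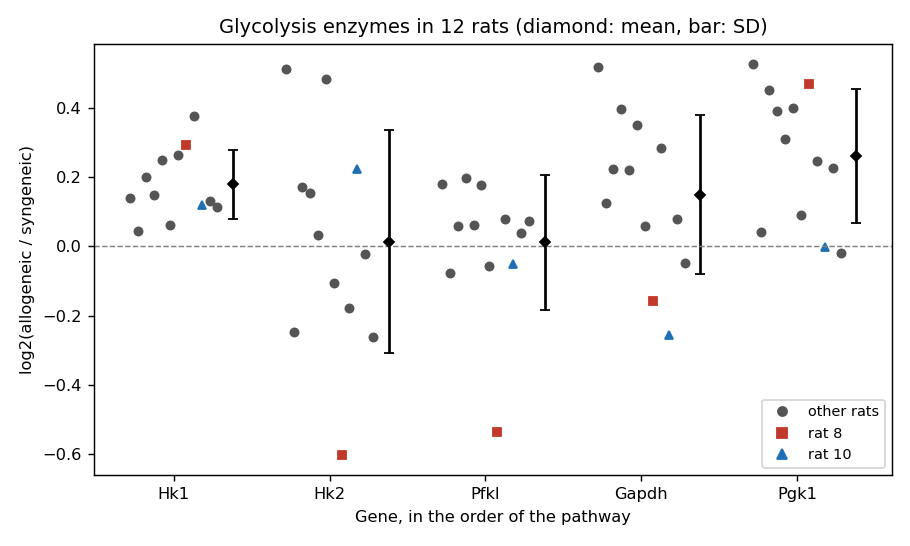
Log2 ratio of the allogeneic over the syngeneic explant on the y axis for the 5 glycolysis enzymes, in pathway order on the x axis. Each point is a rat (mean of both arrays, n = 12), and the diamond and bar give the mean and SD. All 12 points of Hk1 lie above 0, whereas rat 8 lies far below the other rats for Hk2 (-0.60) and Pfkl (-0.54).

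Hexokinase 1 (Hk1), the isoenzyme present in most tissues, had the smallest spread between rats. Its log2 ratio was 0.046 in the lowest rat, 0.14 in the median and 0.38 in the highest. All 12 rats were thus above 0, which was true in the same direction for all rats for 5.88% of the genes on the array. The mean was 0.18 ± 0.099 (SD, n = 12), with a 95% confidence interval of 0.12 to 0.24 and a limma adjusted p of 0.00119. Without rat 8 and the bright array, the mean was 0.19 and all 11 remaining rats were above 0. The 3 slides gave means of 0.13, 0.22 and 0.19 with 4 rats each. With median centring in place of loess, the mean was 0.10 (adjusted p = 0.182). However, the difference depended on the dye orientation. With Cy5 as the dye of the allogeneic explant it was 0.28 (adjusted p = 3.57e-04, 11 of 12 rats higher), and with Cy3 it was 0.077 (adjusted p = 0.187, 9 of 12 rats higher). Over all genes, 30.2% and 28.7% were called in these orientations.

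Hexokinase 2 (Hk2), an inducible isoenzyme of muscle, fat and proliferating cells, varied more between rats than any other gene of the 5. Its log2 ratio was -0.60 in the lowest rat (rat 8), 0.0053 in the median and 0.51 in the highest (rat 1). Rats were split evenly, with 6 above and 6 below 0. The mean was 0.013 ± 0.32 (SD, n = 12) with a 95% confidence interval of -0.18 to 0.20 and a limma adjusted p of 0.941. Without rat 8 and the bright array, the mean was 0.070 with an adjusted p of 0.552.

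Pfkl, the liver form of phosphofructokinase, had a narrow distribution apart from a single rat. The log2 ratio was -0.54 in rat 8, the median was 0.061, and the highest value was 0.20. The mean of 0.012 ± 0.20 (SD, n = 12) had a limma adjusted p of 0.910, with 8 of 12 rats above 0. When rat 8 and the bright array were left out, the SD was 0.094, the mean was 0.082, and the adjusted p was 0.0465 with 9 of 11 rats higher. The call of Pfkl thus rested on which samples were kept.

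Gapdh served as the internal control for the qRT-PCR of the explants in the study, so that its own difference between allogeneic and syngeneic samples is of interest. With the allogeneic sample in Cy5, the intensity of the Gapdh spot before background correction was 100588 in the lowest, 114157 in the median and 140020 in the highest allogeneic sample, outside the bright array. The syngeneic samples labeled with the same dye gave 90819, 101944 and 200961. The intensities of both groups overlapped. As log2 ratios within arrays, Gapdh was at -0.26 in the lowest rat (rat 10), 0.17 in the median and 0.52 in the highest (rat 1), and 9 of 12 rats were above 0. The mean was 0.15 ± 0.23 (SD, n = 12) with a 95% confidence interval of 0.013 to 0.29, an unadjusted p of 0.0339 and an adjusted p of 0.133 by limma.

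The low value of rat 10 came from its bright array. On this array, the log2 ratio of Gapdh was -0.87, while the other array of the same rat gave 0.36. Without the bright array, the mean of Gapdh was 0.20 (limma adjusted p = 0.0223), and without rat 8 in addition it was 0.23 ± 0.17 (SD, n = 11), with an adjusted p of 0.00387 and 10 of 11 rats higher. By the labels, this mean corresponds to a 1.18-fold higher level of the reference gene in the allogeneic samples (0.850-fold with all signs turned), but the direction was lost with median centring of all arrays (-0.033). Leaving out rat 10 as a whole gave 0.19 with an adjusted p of 0.0479. The means of the slides were 0.32, 0.12 and 0.015, and this difference between slides was not tested.

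Pgk1 had the highest mean difference of the 5 genes. Its log2 ratio was -0.020 in the lowest rat (rat 12), 0.28 in the median and 0.53 in the highest (rat 1), with 10 of 12 rats above 0. The mean was 0.26 ± 0.19 (SD, n = 12), the 95% confidence interval was 0.14 to 0.38, and the limma adjusted p was 0.00546. The adjusted p was between 0.00433 and 0.0140 when each rat was left out in turn, but with median centring in place of loess the mean was 0.071 (adjusted p = 0.659). Slide means were 0.35, 0.32 and 0.11. In contrast to Hk1, Pgk1 passed the threshold in both dye orientations, with 0.36 (adjusted p = 0.00478) for the allogeneic sample in Cy5 and 0.16 (adjusted p = 0.0428) for Cy3. A difference between Hk1 and Pgk1 in this respect was not tested.

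Both arrays of a rat hold the same RNA, so that any difference between them is technical. The log2 ratio from the array with the allogeneic sample in Cy5 minus that from the array with it in Cy3 was tested within rats. By limma, 2 of the 5 genes differed, 1 in each direction. Over all genes 51.9% did, 28.6% as higher in the Cy5 orientation and 23.3% as lower. Hk1 was higher by 0.20 ± 0.21 (SD, n = 12) in the Cy5 orientation, in 11 of 12 rats (adjusted p = 0.00632). Hk2 was lower by the same measure, with -0.24 ± 0.16, in 10 of 12 rats (adjusted p = 3.51e-04), and its mean was -0.11 with the allogeneic sample in Cy5 and 0.13 with it in Cy3. Pgk1 differed by 0.20 (adjusted p = 0.0533), Gapdh by -0.13 (adjusted p = 0.283) and Pfkl by -0.020 (adjusted p = 0.765). Without rats 8 and 10, Pgk1 was called as well, among 58.8% of all genes. For Hk1 and Hk2, this difference between orientations was at least as large in size as the mean difference between explants. It adds up the dye bias of both arrays, so that a bias of equal size on each is smaller than this difference. The bias cancels in the mean of both arrays only where it is the same in size on each.

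**Figure D2:**
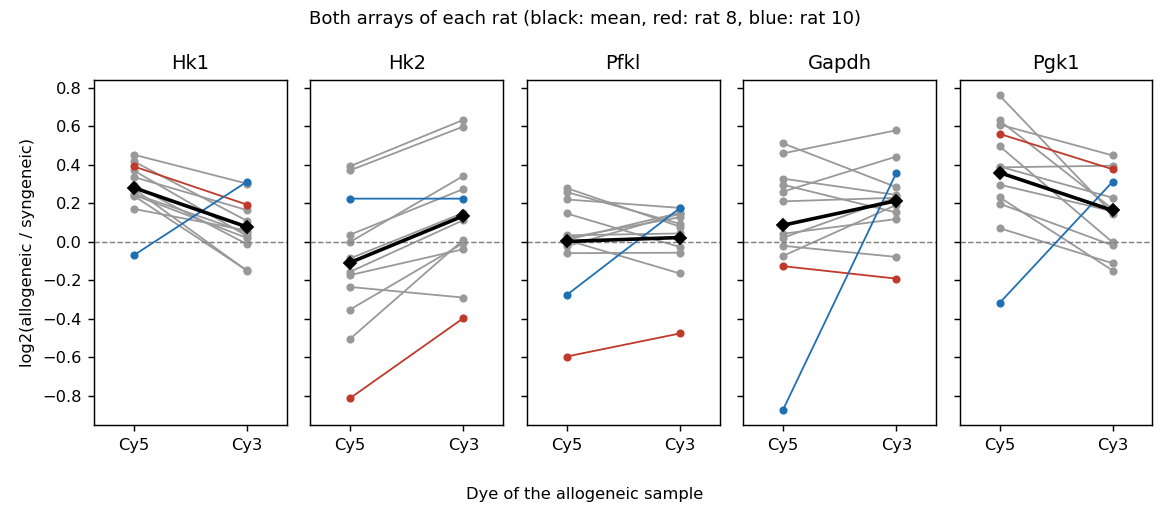
Log2 ratio of the allogeneic over the syngeneic explant on the y axis, for the array with the allogeneic sample in Cy5 (left) and in Cy3 (right) of each rat. A line joins both arrays of a rat, the black line gives the means, and rats 8 and 10 are in red and blue. Lines fall for Hk1 in 11 of 12 rats and rise for Hk2 in 10 of 12, and the array of rat 10 in the Cy5 orientation gives -0.87 for Gapdh.

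Without intensity-dependent normalization the dye bias was large for the bright spots. With median centring, the orientation difference was 1.14 for Gapdh, 1.50 for Pgk1 and 1.04 for Hk1, and 83.8% of all genes were called. Loess brought these differences to -0.13, 0.20 and 0.20.

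As a description over 12 rats, the log2 ratios of Gapdh had a Pearson correlation of 0.70 with those of Pfkl, 0.60 with Pgk1, 0.59 with Hk2 and -0.044 with Hk1. Without rats 8 and 10, the values were 0.74, 0.87, 0.80 and 0.025. Hk1 had correlations of -0.43 with Hk2, -0.33 with Pfkl and 0.23 with Pgk1. The pairs share arrays and a normalization, and no test was made. Among 5310 genes well above background on all arrays, the ratios most like those of Gapdh belonged to Eif4ebp1, a repressor of translation initiation (0.97), and Hgs, an endosomal sorting protein (0.89). They were followed by a gene named only by a transcript accession (0.88), the olfactory receptor Olr1246 (0.87) and the class II gene RT1-Bb (0.87). None of these genes passed the threshold between explants. Without rats 8 and 10, their correlations with Gapdh were between 0.72 and 0.95.

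Further genes of the pathway were taken from lists of isoenzymes, carriers and regulators. Of 6 other glycolytic isoenzymes described here, 2 were called as higher and 1 as lower, beside 8.67% and 7.59% of all genes. Pfkm and Pfkp, the muscle and platelet forms of phosphofructokinase, were higher by 0.30 ± 0.19 (limma adjusted p = 0.00217, 11 of 12 rats) and 0.24 ± 0.15 (adjusted p = 0.00196, 12 of 12 rats). Like Hk1, both depended on the dye orientation. With the allogeneic sample in Cy5 they were at 0.45 and 0.38. With it in Cy3 they were at 0.15 (limma adjusted p = 0.112) and 0.11 (adjusted p = 0.0720). Hk3, the hexokinase of myeloid cells, was lower in all 12 rats with a mean of -0.78 ± 0.46 (adjusted p = 0.00113), between -1.74 and -0.23. It passed the threshold in both orientations, with -0.98 for Cy5 and -0.59 for Cy3. The size of its difference still depended on the orientation, by -0.39 (limma adjusted p = 7.39e-04). Hk3 thus ran against Hk1, and both had the same sign in every rat. The median of the 6 genes was 0.016, beside 0.012 over all genes. Adpgk, Pgk2 and Pklr had means between -0.065 and 0.028 and were not called. The mean of Adpgk averaged opposite signs, with -0.20 for Cy5 (limma adjusted p = 0.0205) and 0.21 for Cy3 (adjusted p = 0.0285).

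None of 3 carriers of glucose and lactate was called by limma, 0 had an unadjusted p under 0.05, and 0 were called by an exact signed-rank test over rats. Slc2a1, the main glucose transporter of skin cells, had a mean of 0.086, and Bsg, the chaperone of the lactate carriers, 0.14. Without rat 8 and the bright array, Bsg was called as higher. Of 11 regulators, 1 was higher and 2 were lower by limma, while 2 in all were called by the signed-rank test. Over all genes, limma called 16.3% and the signed-rank test 18.6%, so that the count of regulators was near the background. Pdk2 and Pdk4 encode kinases that switch off pyruvate dehydrogenase. Their means had opposite signs, with 0.12 ± 0.14 (adjusted p = 0.0476) for Pdk2 and -0.14 ± 0.11 (adjusted p = 0.00605, 11 of 12 rats lower) for Pdk4. However, Pdk2 was at 0.25 with the allogeneic sample in Cy5 and at -0.0057 (limma adjusted p = 0.940) with it in Cy3. Pdk4 was at -0.17 and -0.12 and was called in both orientations. Arnt, the partner of Hif1a in the transcription factor that responds to low oxygen, was lower by a small amount (-0.065 ± 0.064, adjusted p = 0.0424). Hif1a itself had a mean of 0.17 ± 0.73 (adjusted p = 0.619) and reached 2.41 in rat 8.

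**Figure D3:**
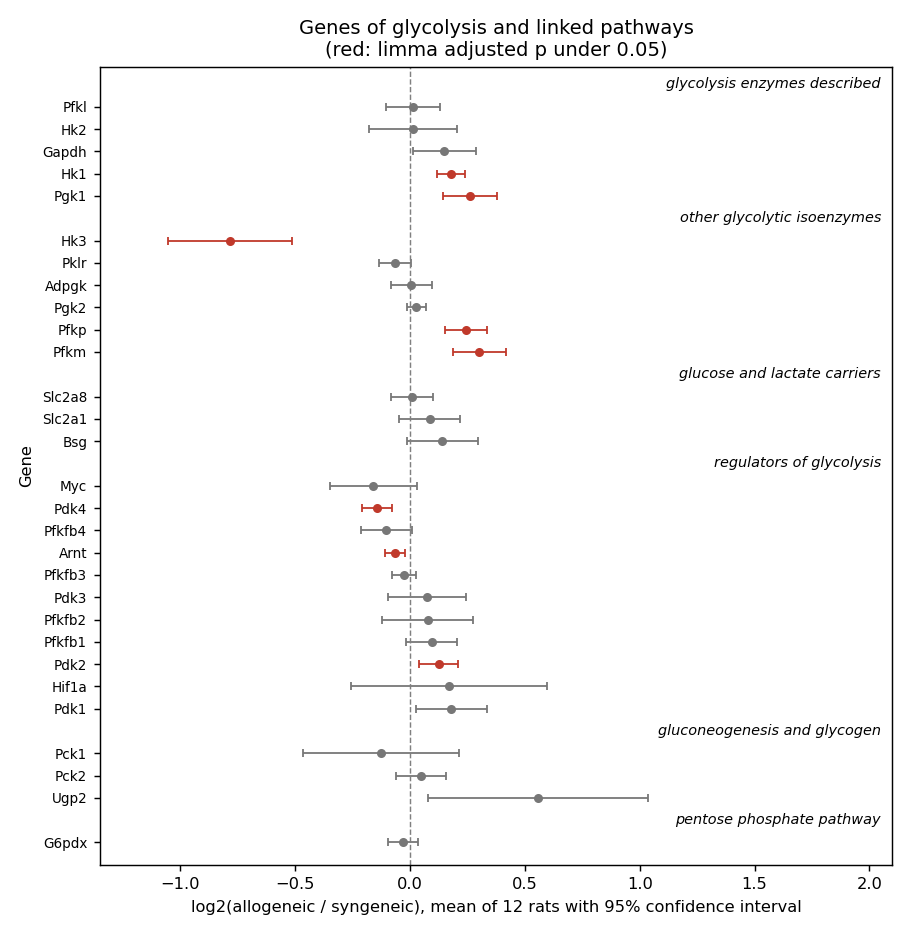
Mean log2 ratio of the allogeneic over the syngeneic explants (x axis, 12 rats) with its 95% confidence interval for the listed genes of glycolysis and linked pathways (y axis), grouped by list. Genes in red had a limma adjusted p under 0.05, and among these Hk3 lies at -0.78 while Pgk1, Pfkm and Pfkp lie between 0.24 and 0.30.

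Of 3 genes of gluconeogenesis and glycogen 0 were called by limma, while 1 (Ugp2) had an unadjusted p under 0.05 and was called by the signed-rank test, and by limma without rat 8 and the bright array. The single gene of the pentose phosphate pathway (G6pdx, -0.031) was not called by any of these. Ugp2 makes the glucose donor for glycogen and was above 0 in all 12 rats, from 0.052 to 3.06, with a mean of 0.56 and an adjusted p of 0.111. The highest value was that of rat 8, without which the mean was 0.33 (adjusted p = 0.00189). A further 8 genes on the array are described as similar to pyruvate kinase M2. None was called between explants by limma or the signed-rank test, 0 had an unadjusted p under 0.05, and their means were -0.081 to -0.024, but all 8 were called as lower in the Cy5 orientation than in the Cy3 orientation, as were 23.3% of all genes. Their identity as pyruvate kinase transcripts was not tested.

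B2m, a component of MHC class I molecules, was the other gene used as an internal control in the study, and Actb was not found among the gene names. The mean of B2m over its 2 probes was 0.0025 ± 0.55 (SD, n = 12, limma adjusted p = 0.994). Rat 8 gave 1.69, and all other rats were between -0.44 and 0.011. The log2 ratio of B2m minus that of Gapdh was -0.70 in the lowest rat, -0.26 in the median and 1.85 in the highest (rat 8). Only rat 8 was above 0. The mean of this difference was -0.15 ± 0.66 (exact permutation of signs over 12 rats, two-sided p = 0.525). Without rat 8, it was -0.33 ± 0.20 with an exact permutation p of 9.77e-04, where all 11 rats were below 0. This p is the smallest that the test can give for 11 rats. Leaving out the only rat above 0 fixed it in advance, so no conclusion is drawn from it. Which of the 2 genes moved cannot be read from this difference alone.

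Of the 7 reference genes other than Gapdh, 0 were called by limma over 12 rats (adjusted p of 0.346 to 0.994), 0 had an unadjusted p under 0.05, and 0 were called by the signed-rank test. For 3 of the 7 (Arbp, Tbp and Eef1a1), limma called the orientation difference, beside 51.9% of all genes. Arbp was called in opposite directions, at 0.44 with the allogeneic sample in Cy5 (limma adjusted p = 0.00637) and -0.32 in Cy3 (adjusted p = 5.09e-04). The SD over rats was 0.12 for Tbp and 0.17 for Ppia, lower than the 0.23 of Gapdh. It was 0.23 for Arbp, 0.48 for Eef1a1, 0.51 for Tfrc, 0.55 for B2m and 0.68 for Hprt. These genes are named here after their values were seen. In Hprt, B2m, Eef1a1 and Tfrc, rat 8 was the highest of all rats, with values from 1.42 to 2.23, while Gapdh and Arbp were at -0.16 and -0.28 in the same rat. Rat 8 was also the highest for Tbp, at 0.33, where no other rat was above 0.036. Without rat 8 and the bright array, Hprt (-0.11), B2m (-0.13) and Tfrc (-0.31) were called as lower, and Gapdh was called as higher.

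**Figure D4:**
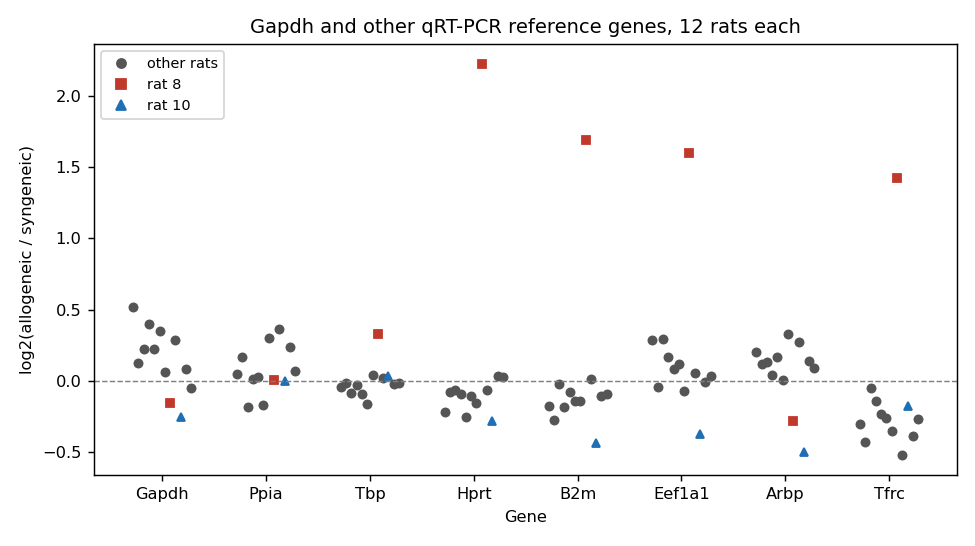
Log2 ratio of the allogeneic over the syngeneic explant (y axis) for Gapdh and 7 other reference genes (x axis), 1 point per rat (n = 12). Rat 8 lies between 1.42 and 2.23 for Hprt, B2m, Eef1a1 and Tfrc, at 0.33 for Tbp, and near or below 0 for Gapdh, Ppia and Arbp.

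Marker genes of cell types differed between the same explants, beside 8.67% of all genes called as higher and 7.59% as lower. Of 3 fibroblast markers 2 were higher (Pdgfrb 0.43, adjusted p = 2.28e-04, and Col1a2 0.55, adjusted p = 0.00430), and of 5 endothelial markers 2 were higher (Cdh5 0.33, adjusted p = 1.01e-04, and Pecam 0.17, adjusted p = 0.00740). With the allogeneic sample in Cy5 and in Cy3, Pdgfrb was at 0.85 and 0.0060, and Cdh5 at 0.57 and 0.090. Pecam was at 0.24 and 0.10, and Col1a2 at 0.46 and 0.64. Among these, only Col1a2 passed the threshold in both dye orientations. Of 12 T cell markers 5 were lower, led by Cd8b (-0.49), Cd8a (-0.32), Lck (-0.70) and Cd5 (-0.97). Cd3z, the T cell marker of the study's qRT-PCR, was at -0.074 (adjusted p = 0.289). By that qRT-PCR, in a part of these sample pairs, the study found Cd3z higher in the allogeneic than in the syngeneic explants. Of 7 macrophage markers 3 were lower, which were Itgam (-0.60), Fcgr1 (-0.52) and Csf1r (-0.22). Of 4 skeletal muscle markers 1 (Actn2, 0.13) was higher, and 0 of 3 keratinocyte markers (1 at an unadjusted p under 0.05) and 0 of 1 red cell marker (0 unadjusted) were called by limma or the signed-rank test. The sign of Actn2 depended on the dye orientation. It was at -0.27 with the allogeneic sample in Cy5 (limma adjusted p = 0.00143) and at 0.52 with it in Cy3 (adjusted p = 2.42e-05). Without rat 8 and the bright array, 3 fibroblast markers (Pdgfra added, 0.33) and 1 keratinocyte marker (Cdh1, 0.17) were called as higher, and 6 T cell markers (Cd4 added, -0.046) and 4 macrophage markers (Mrc1 added, -0.58) as lower. The muscle markers Ckm and Acta1 had a range over rats of -1.10 to 2.58 and -1.08 to 2.56.

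Summed over a list and without rat 10, the normalised intensities of the allogeneic and syngeneic samples were 18469 to 38776 and 11128 to 25316 for fibroblast markers, and 19995 to 32407 and 19497 to 26692 for endothelial markers. They were 3635 to 5651 and 4202 to 7482 for T cell markers, 13546 to 27452 and 13089 to 38831 for macrophage markers, 2481 to 16579 and 2421 to 7114 for muscle markers, and 22071 to 40574 and 12650 to 37835 for keratinocyte markers. These ranges are over rats and do not use the pairing of both explants within a rat. The genes of the keratin family that define keratinocytes were not among the names found, and the list rests on Trp63, Dsc3 and Cdh1, which were well above background. The part of cell composition in the differences of Hk1, Pgk1, Gapdh or Hk3 was not tested.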

How the data were processed

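Gene expression was measured by two-color Agilent arrays, with 12 rats and 2 dye-swapped arrays each. Per the file headers, the authors extracted spot intensities (mean signal and local median background in Cy3 and Cy5) with Feature Extraction 9.5.1.1 and deposited them without normalization. A further table of log2 ratios per array, deposited by the authors, was used as an alternative only. Its columns correlated with the allogeneic over syngeneic log ratios of the processed signals at 0.703 to 0.957 and had medians of -0.027 to 0.048. The methods name loess regression as the normalization and the submitters' processing notes name limma, while the background correction behind this table is not given in the sources used here. The labels and the methods name different amplification kits.

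Background was corrected with normexp (offset 50), followed by loess normalization within arrays (R 4.3.3, limma 3.58.1, statmod 1.5.0). Control spots (536 of 15744) and outlier spots were left out. Ratios were turned to allogeneic over syngeneic by the dye labels and averaged over spots, both arrays of a rat and the probes of a gene. Each gene was tested against 0 over 12 rats by the moderated test of limma, and p-values were adjusted by the Benjamini-Hochberg method over 7244 genes (or 8453 probes, of which 17.3% were called). The study used a mixed-effects model in SAS, which was not refitted here. A test of each gene without the moderation of limma was run as an alternative. The replicate number in the labels pairs both arrays of a rat, since they hold the same RNA, and the orientation difference was tested within these pairs. The test scripts were tested on simulated data.

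Of 15208 probe spots, 74.8% to 99.9% were well above background per array and channel. The number of arrays limits the precision. The gene name alone assigned probes to members. Members and lists were chosen with earlier results of these data known, and some genes of the related lists are not reported here. Genes named were all members, the called genes of related lists, B2m and Actb, up to 4 called markers per list with the lowest adjusted p, and the 5 genes most like Gapdh. Reference genes, regulators and carriers named beside these were chosen after their values were seen.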

Additional observations from a re-analysis of the deposited data

Results flagged for a closer look

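The difference between explants depended on the dye orientation for a pair of the enzymes, by a limma test of the difference itself within rats. For Hk1 the log2 ratio was 0.204 higher with the allogeneic sample in Cy5 (n = 12), and for Hk2 the difference between the orientations was -0.242. Over all genes 51.9% had such a difference. Each rat has both orientations once, so that a dye effect of the same size on both arrays cancels in its mean.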

How the results depend on the processing

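Apart from leaving out single rats, Hk1 was called as higher under 15 and Pgk1 under 16 of 18 alternatives, and both under each that left out 1 rat. Hk2 was called under none of these. Some alternatives were no check of these genes, each of which has 1 probe well above background. The median over probes, the brightest probe and the filter on dim probes could not change their ratios. Keeping outlier spots could change the ratios only through the loess curve, so the counts overstate how much was varied. With median centring in place of loess, 0 of the 5 genes were called, Gapdh was at -0.033 (limma adjusted p = 0.889), and the orientation difference was called for 5 genes and was 1.14 for Gapdh, 0.14 for Hk2 and 0.47 for Pfkl. With the sign of rat 5 turned, for which the labels give no reason, 0 probes and 0 of the 5 genes were called, against 1459 probes and 2 genes, while 2 of the 5 genes had an unadjusted p under 0.05. With the allogeneic sample in Cy5 alone, 2659 probes were called, Hk2 was at -0.11, and B2m minus Gapdh was 1.93e-05. With this sample in Cy3 alone, 2500 probes were called and Gapdh was at 0.21 (adjusted p = 0.0143). The cause of these changes was not tested.

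Leaving out the bright array gave 0.20 for Gapdh, an alternative chosen after seeing the data. Without rat 8 in addition, 2231 probes and 4 of the 5 genes were called, Gapdh was at 0.23, B2m minus Gapdh was -0.36, and without rats 8 and 10 the orientation difference of Pfkl was 0.033. Leaving out each rat in turn gave 1155 to 2087 probes (the highest without rat 8), 2 to 3 of the 5 genes, 0.12 to 0.19 for Gapdh, -0.032 to 0.070 for Hk2, -0.0048 to 0.062 for Pfkl and -0.33 to -0.097 for B2m minus Gapdh. The orientation difference was then called for 2 to 3 genes and was -0.041 to 0.019 for Pfkl.

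With the rat as a random replicate block over 24 arrays, 1636 probes and the same 2 genes were called. Without the replicate block, the orientation difference was called for 1 gene (Hk1) in place of 2. The pairing is given by the labels. All 5 genes were well above background on every array.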
